A study of Rattus norvegicus with 6 samples.

Results

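The dual-specificity MAPK phosphatases are the enzymes that switch MAP kinases off. Their genes were selected by symbol from a list of 10 (Dusp1, Dusp2, Dusp4, Dusp5, Dusp6, Dusp7, Dusp8, Dusp10, Dusp14 and Dusp16), and 9 were found among 28293 genes. Dusp1 was not analysed here. The expression of a gene was not used to choose it.

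Myocardial tissue from male wild-type rats was compared between a sham group (3 rats) and an ischemia/reperfusion group (I/R, 3 rats), and each rat is listed as a sample of its own. In the I/R rats a tie on the left anterior descending coronary artery blocked it for 30 min, and the heart was collected 6 h after the tie was released. The labels write 30 min and 6 h for both groups, and per the study's methods the sham rats underwent sham surgery. Total RNA was sequenced from stranded libraries, the part of the heart that was used is not given in the sources used here, and values are FPKM (fragments scaled to the length of the gene and to the size of the library).

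A MAP kinase is active when a threonine and a tyrosine in its activation loop both carry phosphate, and these phosphatases remove both groups. Most of them also hold a domain that docks on a kinase, which gives each a preference among the ERK, JNK and p38 kinases, and a signal in the protein keeps it in the nucleus or in the cytoplasm. Several are themselves transcribed in response to the pathway that they shut off, which makes a negative feedback loop, and all 3 kinase branches are known to be activated in the heart by ischemia and reperfusion.

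Of the 9 phosphatase genes, 3 rose in the I/R group on the FPKM as deposited, and none of the 3 passed when the libraries were rescaled without the mitochondrially encoded mRNAs. These were Dusp5, a nuclear phosphatase of ERK, Dusp6, a cytoplasmic phosphatase of ERK, and Dusp8, a phosphatase of JNK and p38. Their mean FPKM was 2.84, 2.25 and 3.49 times that of the sham group. No phosphatase gene passed the test in the other direction. Dusp7, the most abundant of the 9 in sham tissue and a close relative of Dusp6, did not pass the test, with a mean 1.24 times that of the sham group.

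Each difference was tested with limma on log2(FPKM + 0.1), a scale that understates the change of low genes, in the 10942 genes with a mean of at least 0.5 FPKM over the 6 rats. A gene was called at a Benjamini-Hochberg adjusted p under 0.05 over all genes tested. Over these genes, 25.5% were called higher and 7.36% lower with I/R, at a median log2 fold change of 0.29. Of the 9 phosphatase genes, 6 passed the filter, with 3 called higher and 0 lower. The background covers only genes that passed the filter, so the count to set beside it is 3 of 6, too few genes for a reading about the family. The median log2 fold change was 0.86 over all 9, which includes genes under the filter, and 1.0 over the 6 tested. Of the 9 values, 8 were above 0, but so were 7142 of the 10942 over all genes tested. Nothing about the family was read from this count.

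The same libraries differed in their make-up. The 13 mitochondrially encoded mRNAs held 80.06% to 86.17% of the summed FPKM in the sham rats and 61.81% to 71.45% in the I/R rats. Values of cardiomyocyte markers moved with the group as well, since 6 of the 7 found were called higher, and their summed FPKM ran from 3260 to 10600 in sham rats and from 21400 to 30900 in I/R rats. Tnni3 and Tnnt2, which encode troponin subunits, had the highest levels among them, and none of the 7 was at 0. Among neutrophil and monocyte markers, 3 of 5 tested were higher and 1 was lower, and the sum over all 7 was 14.7 to 18.5 FPKM against 29.1 to 84.6 FPKM, led by S100a9 and S100a8. Fibroblast markers (2 of 7 higher, led by Col3a1 and Dcn, 420 to 581 against 605 to 669 FPKM) and macrophage markers (1 higher and 2 lower of 7, led by C1qb and C1qa, 46.7 to 51.3 against 55.7 to 69.5 FPKM) also did not overlap in their sums. The sums overlapped for endothelial markers (0 of 7 called), smooth muscle and pericyte markers (1 higher and 1 lower of 6), lymphocyte markers (0 of 4 tested) and red blood cell markers (0 of 2 tested, with Hbb-bs listed at 0 in every rat). The part of these differences in the results on the phosphatases was not tested. In bulk tissue, fewer cells of a type and less RNA per cell cannot be told apart. As nothing in the labels says more than that the rats are separate samples, p-values measure the spread between these samples.

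**Figure D1:**
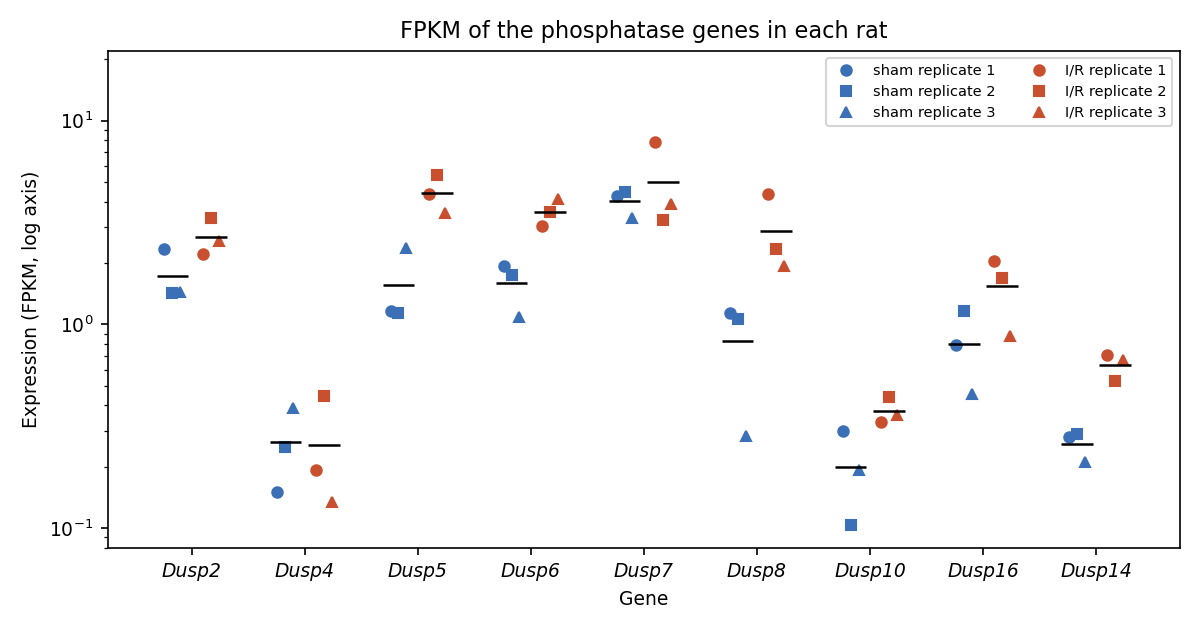
Expression of the 9 phosphatase genes in FPKM on a log axis, with 1 point per rat, a marker shape for each replicate number, and a bar at the mean of each group of 3. The I/R points of Dusp5, Dusp6, Dusp8, Dusp10 and Dusp14 all lie above the sham points, and those of Dusp2, Dusp4, Dusp7 and Dusp16 overlap them.

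Dusp5 (ENSRNOG00000014061) encodes a nuclear phosphatase that acts on ERK and holds it in the nucleus. Sham replicates 1, 2 and 3 gave 1.16, 1.14 and 2.38 FPKM, and I/R replicates 1, 2 and 3 gave 4.34, 5.43 and 3.50 FPKM. All I/R rats lay above all sham rats, and sham replicate 3 was the sham rat nearest to them. Mean expression increased from 1.56 ± 0.711 to 4.42 ± 0.969 FPKM (SD, n = 3 each). This was a log2 fold change of 1.50 (standard error 0.31, 95% confidence interval 0.81 to 2.20, adjusted p = 0.0076, limma), and 8.58% of the genes tested rose more.

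The promoter of Dusp5 is shown because it held an uncommon pair of motifs, taken from RefSeq on the GRCr8 build. The window searched ran from 250 bases before to 50 bases after the start of each gene, and 8 of the 9 phosphatase genes had an entry (Dusp4 had none). The stretch below covers chr1:262543674-262543733 on the plus strand, which is −100 to −41 from the start of Dusp5. The first run of capitals marks 2 serum response elements (CArG boxes, a CC and a GG around a run of A and T bases) that abut each other, at −82 to −73 and −72 to −63. The second run marks TGACG, read on the opposite strand, at −55 to −51, the core of the cyclic AMP response element.
Dusp5 promoter: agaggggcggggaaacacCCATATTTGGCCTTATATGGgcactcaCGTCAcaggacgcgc
A serum response element was found in 548 of 33469 promoter windows (1.64%). At least 2 of them were found in 7 windows (0.0209%), and the named genes among these were Dusp5, Egr1, Srf and Hnrnpd. No other phosphatase gene with an entry held one. Of the 18 feedback and output genes of ERK described below, 13 had an entry, and among these only Egr1 held the element in its window. In that list 10 of the 14 tested were called higher, against 25.5% of all genes tested. Fos, Ccnd1 and Ier3 were among the 10 but had no entry, so the counts cover different genes. Whether the element has a part in any rise was not tested. Egr1, an immediate early transcription factor, was higher by 4.44 on the log2 scale (adjusted p = 0.00047, limma). It rose from 1.38 ± 0.350 to 36.2 ± 24.7 FPKM (SD, n = 3 each). Srf, which encodes the factor that binds this element, was higher by 2.08 (adjusted p = 0.0017, limma) and Hnrnpd, an mRNA-binding protein gene, by 0.94 (adjusted p = 0.0093). Hnrnpd did not pass with quantile normalization (0.08, adjusted p = 0.78, limma) or with rescaling over the genes that are not mitochondrially encoded (0.16, adjusted p = 0.66).

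Other motifs searched on both strands were more common. TGACG was present in the windows of Dusp2, Dusp5, Dusp14 and Dusp16 and in 21.2% of all windows. TGANTCA (the AP-1 site) was present at −89 to −83 of Dusp14 and in 7.33% of all windows, and CACGTG (the E-box) at −123 to −118 of Dusp2 and in 6.42% of all windows. The full cyclic AMP response element TGACGTCA, which contains TGACG, and the NF-kB element were in none of the 8 windows, against 1.83% and 4.18% of all windows. These matches describe letters in a window and say nothing of binding.

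Dusp2 (ENSRNOG00000013862) encodes a nuclear phosphatase best known from activated immune cells. The study designed a primer pair and an siRNA against it, and these are shown because they mark the stretch of the mRNA that its own reagents target. The 5′ bases of the siRNA sense strand repeat the last 7 bases of the forward primer, which are in capitals, with U in place of T. The siRNA strands pair over 19 bases.
Forward primer: tccgctacaagagCATTCCA
Reverse primer: atgaagccgatagcctcctg
siRNA sense strand: CAUUCCAguagaagauaautt
siRNA antisense strand: auuaucuucuacuggaaugtt
Dusp2 was 2.33, 1.43 and 1.44 FPKM in the sham rats and 2.22, 3.32 and 2.55 FPKM in the I/R rats. Sham replicate 1 lay above I/R replicate 1, so the groups overlapped. The mean was 1.74 ± 0.519 FPKM and 2.70 ± 0.565 FPKM (SD, n = 3 each), and the log2 fold change of 0.63 (standard error 0.27, 95% confidence interval 0.02 to 1.23) did not pass the threshold (adjusted p = 0.10, limma). Without sham replicate 1 it was 0.85 and passed (adjusted p = 0.042, limma). Dusp2 was called in 2 of 16 alternatives, and its highest adjusted p was 0.78 (limma).

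Dusp4 (ENSRNOG00000011921), a nuclear phosphatase of ERK and JNK, was among the lowest. It was 0.151, 0.251 and 0.389 FPKM in the sham rats and 0.192, 0.444 and 0.135 FPKM in the I/R rats. The values of the groups were interleaved, and both the lowest and the highest rat belonged to the I/R group. It was under the filter on low values, with a log2 fold change of −0.07 (two-sided exact permutation test, p = 0.9). Dusp4 and Dusp5 are both nuclear, yet the log2 ratio of Dusp5 to Dusp4 was 2.58 ± 0.379 in the sham group and 4.27 ± 0.579 in the I/R group (SD, n = 3 each). This ratio, chosen after its values were seen, was higher in every I/R rat than in every sham rat.

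Dusp6 (ENSRNOG00000023896) encodes a cytoplasmic phosphatase that is selective for ERK and a known feedback target of that pathway. It was 1.93, 1.75 and 1.08 FPKM in the sham rats and 3.05, 3.55 and 4.10 FPKM in the I/R rats. The groups were well apart, with a gap between sham replicate 1 and I/R replicate 1. The mean rose from 1.58 ± 0.447 to 3.57 ± 0.525 FPKM (SD, n = 3 each), a log2 fold change of 1.15 (standard error 0.26, 95% confidence interval 0.56 to 1.74, adjusted p = 0.011, limma). Of the genes tested, 15.2% rose more.

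Dusp7 (ENSRNOG00000010789), the other cytoplasmic phosphatase of ERK, was 4.25, 4.48 and 3.31 FPKM in the sham rats and 7.86, 3.24 and 3.88 FPKM in the I/R rats. One I/R rat, replicate 1, lay far above the rest, and the other 2 lay below the 2 highest sham rats. The means were 4.02 ± 0.619 FPKM and 4.99 ± 2.50 FPKM (SD, n = 3 each). The log2 fold change was 0.21 (standard error 0.32, 95% confidence interval −0.51 to 0.94, adjusted p = 0.64, limma), and it became −0.16 without I/R replicate 1. The interval leaves room for a change in either direction. The log2 ratio of Dusp6 to Dusp7, chosen after its values were seen, was −1.37 ± 0.239 in the sham group and −0.385 ± 0.849 in the I/R group (SD, n = 3 each). I/R replicate 1, at −1.36, lay within the sham values, so this difference did not exceed the spread (two-sided exact permutation test, p = 0.3).

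Dusp8 (ENSRNOG00000029394) encodes a phosphatase that acts on JNK and p38. It was 1.13, 1.06 and 0.282 FPKM in the sham rats and 4.36, 2.33 and 1.94 FPKM in the I/R rats. Every I/R rat lay above every sham rat, sham replicate 3 was far below the other sham rats, and I/R replicate 1 was far above the other I/R rats. The means were 0.823 ± 0.470 FPKM and 2.88 ± 1.30 FPKM (SD, n = 3 each). With a log2 fold change of 1.78 (standard error 0.47, 95% confidence interval 0.74 to 2.82, adjusted p = 0.018, limma), Dusp8 rose most among the 9 genes, and 5.44% of the genes tested rose more. Its call was the least firm of the 3. Without I/R replicate 1 it was higher by 1.45 on the log2 scale (adjusted p = 0.065, limma), and without sham replicate 3 by 1.23 (adjusted p = 0.045, limma).

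Dusp16 (ENSRNOG00000006628), a phosphatase of JNK and p38, was 0.795, 1.16 and 0.457 FPKM in the sham rats and 2.05, 1.68 and 0.880 FPKM in the I/R rats. Only I/R replicate 3 fell within the sham values. The means were 0.805 ± 0.353 FPKM and 1.54 ± 0.597 FPKM (SD, n = 3 each), and the log2 fold change of 0.86 (standard error 0.39, 95% confidence interval −0.02 to 1.73) did not pass the threshold (adjusted p = 0.12, limma). Without I/R replicate 3 it was 1.19 and passed (adjusted p = 0.049, limma). Dusp16 was called in only 1 of 16 alternatives, and its highest adjusted p was 0.80 (limma).

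Dusp10 (ENSRNOG00000004003), also a phosphatase of JNK and p38, was 0.298, 0.104 and 0.193 FPKM in the sham rats and 0.331, 0.440 and 0.358 FPKM in the I/R rats. The I/R rats all lay above the sham rats, though I/R replicate 1 was only a little above sham replicate 1. The ratio of the means was 1.90 and the log2 fold change 0.72, at levels too low for the filter. A two-sided exact permutation test gave p = 0.1, the smallest that 3 rats against 3 allow.

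Dusp14 (ENSRNOG00000030091) encodes a small atypical phosphatase that lacks the docking domain of the others. It was 0.279, 0.289 and 0.210 FPKM in the sham rats and 0.704, 0.529 and 0.665 FPKM in the I/R rats. The values were even within each group, and the groups stood clearly apart. The mean was 0.260 ± 0.0428 FPKM and 0.633 ± 0.0917 FPKM (SD, n = 3 each), a ratio of 2.44 and a log2 fold change of 1.03. Dusp14 was under the filter as well. When every gene above 0 was tested, it came close to the threshold without passing (adjusted p = 0.054, limma), while Dusp10 (adjusted p = 0.20) and Dusp4 (adjusted p = 0.93) did not. In that fit 11.4% of 19226 genes were called higher, and Dusp5 (adjusted p = 0.030) and Dusp6 (adjusted p = 0.035) passed, but Dusp8 did not (adjusted p = 0.065).

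In all, 5 of the 9 genes (Dusp5, Dusp6, Dusp8, Dusp10 and Dusp14) were higher in every I/R rat than in every sham rat, and 0 were lower. Across all tested genes, 37.2% were separated upwards and 13.0% downwards in this way, and 3 of the 5 phosphatase genes were among those tested. Of the 6 phosphatase genes tested, 3 were separated upwards, and nothing about the family was read from this count.

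The values of low genes moved in whole steps, so the fragments behind each gene could be recovered as the smallest whole numbers that give its FPKM ratios. These were 14 to 47 for Dusp10 and 22 to 82 for Dusp4, and 254 to 574 for Dusp7. For Dusp8 they were 116, 129 and 33 in the sham rats and 392, 224 and 176 in the I/R rats. The coefficient of variation of Dusp8 was 57.1% in the sham group, against 10.4% from counting alone. For Dusp7 in the I/R group it was 50.1% against 5.2%. The spread between rats was therefore wider than counting error for these genes, whereas for Dusp14 in the sham group (16.5% against 14.1%) and Dusp10 in the I/R group (15.1% against 16.1%) it was about as wide. In the sham group Dusp10 varied more than counting gives (49.0% against 20.3%). If the true counts were multiples of these numbers, the counting error would be smaller. The relative depth was 1.1807 and 1.1356 in sham replicates 2 and 3 and 0.8727 to 0.9351 in the I/R rats, relative to sham replicate 1.

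As FPKM is per length, levels can be set side by side between genes. In the sham group, the order was Dusp7 (4.02 FPKM), Dusp2 (1.74), Dusp6 (1.58), Dusp5 (1.56), Dusp8 (0.823), Dusp16 (0.805), Dusp4 (0.264), Dusp14 (0.260) and Dusp10 (0.198). Dusp7 stood apart from the gene after it, as did Dusp5 from Dusp8 and Dusp16 from Dusp4, and the other neighbours overlapped. In the I/R group, Dusp7 (4.99 FPKM), Dusp5 (4.42), Dusp6 (3.57), Dusp8 (2.88) and Dusp2 (2.70) formed a run in which each gene overlapped the one beside it. Dusp16 (1.54) and Dusp14 (0.633) stood apart from their neighbours, and Dusp10 (0.376) and Dusp4 (0.257) overlapped. Dusp7 was thus separate from the rest in sham tissue only.

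The share of each gene in the summed FPKM of the 9 does not depend on how a library is scaled. The sum itself was 12.3, 11.7 and 9.74 FPKM in the sham rats and 25.1, 21.0 and 18.0 FPKM in the I/R rats. Dusp7 made up 34.5%, 38.4% and 34.0% of it in the sham rats and 31.3%, 15.5% and 21.5% in the I/R rats. Every I/R rat was below every sham rat, and the mean share was 35.6% ± 2.40 and 22.8% ± 7.98 (SD, n = 3 each). A share also falls when the other genes of the sum rise. The mean FPKM of Dusp7 itself was not lower, at 1.24 times that of the sham group. Dusp8 held 9.14%, 9.09% and 2.90% against 17.4%, 11.1% and 10.8%, and Dusp14 held 2.30% ± 0.162 against 3.01% ± 0.611 (SD, n = 3 each). Both were higher in every I/R rat than in every sham rat. For these 3 shares the two-sided exact permutation test gave p = 0.1, the smallest possible, so none of them can pass 0.05 in this design. The shares of the other 6 genes overlapped between the groups. Dusp5 was one of these, with 9.39%, 9.77% and 24.4% in the sham rats and 17.3%, 25.9% and 19.4% in the I/R rats (two-sided exact permutation test, p = 0.3).

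**Figure D2:**
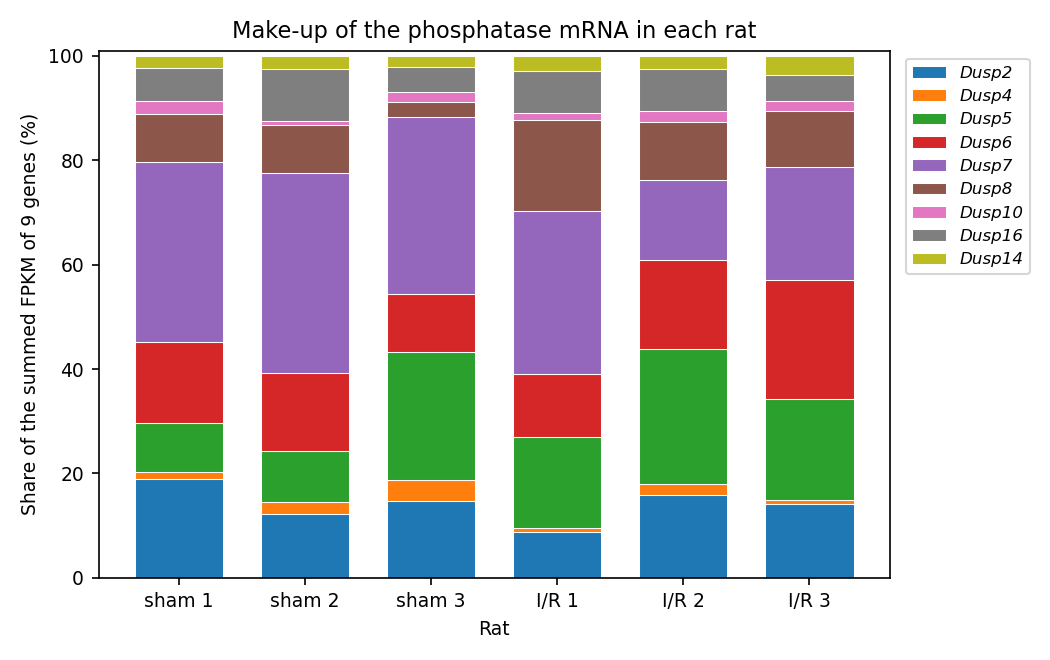
Share of each of the 9 genes in their summed FPKM (%), with 1 stacked bar per rat. The Dusp7 segment spans 34.0% to 38.4% in the sham rats and 15.5% to 31.3% in the I/R rats, and the Dusp8 segment 2.90% to 9.14% and 10.8% to 17.4%.

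Within the I/R group, the rats did not rank alike across the family. I/R replicate 1 was the highest for Dusp7, Dusp8, Dusp14 and Dusp16, I/R replicate 2 for Dusp2, Dusp4, Dusp5 and Dusp10, and I/R replicate 3 for Dusp6. I/R replicate 1 also had the lowest share of mitochondrially encoded mRNAs (61.81%). In the sham group, replicate 3 was the lowest for Dusp6, Dusp7, Dusp8, Dusp14 and Dusp16 and the highest for Dusp4 and Dusp5.

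The phosphatases were then set against genes of the kinase families that they act on, as a ratio of summed FPKM within each rat. Whether they act on every member of a family was not tested. For JNK and p38, the log2 ratio of Dusp8, Dusp10 and Dusp16 to the 7 kinase genes Mapk8 to Mapk14 was −2.86, −3.28 and −4.53 in the sham rats and −1.56, −2.02 and −2.40 in the I/R rats. Each I/R rat had a higher ratio than each sham rat. The difference was 1.56 (p = 0.1, the smallest that a two-sided exact permutation test allows here), and it lay between 1.08 and 1.91 with any 1 rat left out. The summed FPKM of these phosphatases was 1.83 ± 0.776 and 4.79 ± 1.81 (SD, n = 3 each), while that of the kinases was 20.1 ± 3.49 and 18.2 ± 1.51 and overlapped between the groups. Dusp8, alone of these phosphatases, was called, and its mean went from 0.823 to 2.88 FPKM. Dusp16 went from 0.805 to 1.54 FPKM and Dusp10 from 0.198 to 0.376 FPKM, so the ratio leaned on Dusp8. Among the kinases Mapk12 had the highest sham mean, 8.99 FPKM, with 11.8 FPKM in sham replicate 3, the rat at −4.53.

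The phosphatases of ERK, Dusp5, Dusp6 and Dusp7, summed to 7.16 ± 0.336 FPKM without and 13.0 ± 2.0 FPKM with I/R (SD, n = 3 each). Every I/R rat lay above every sham rat in this sum, which, unlike a ratio within a rat, moves with the scaling of the library.

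The calls of the 3 genes depended on the scaling of the libraries. When each rat was rescaled to the sum of its genes without the mitochondrially encoded mRNAs, whose share differed between the groups, all tested genes together had a median log2 fold change of −0.46, and 7.28% of them were called higher. Dusp5 then had a log2 fold change of 0.75 (adjusted p = 0.13, limma), Dusp6 of 0.40 (adjusted p = 0.33) and Dusp8 of 1.06 (adjusted p = 0.066), and no phosphatase gene passed. All 3 genes passed under TPM, centring on the median and quantile normalization. Scaling a library moves all its genes together, so the distance of a gene from the median of all genes is nearly fixed and says nothing of stability. Over the 5 scalings, Dusp8 was 1.49 to 1.67 above that median, Dusp5 1.21 to 1.31, Dusp6 0.86 to 1.0, Dusp14 0.74 to 1.11, Dusp16 0.57 to 0.82, Dusp10 0.42 to 0.81 and Dusp2 0.33 to 0.49. Dusp7 was −0.13 to −0.08 from it, and Dusp4 −0.42 to 0.05.

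**Figure D3:**
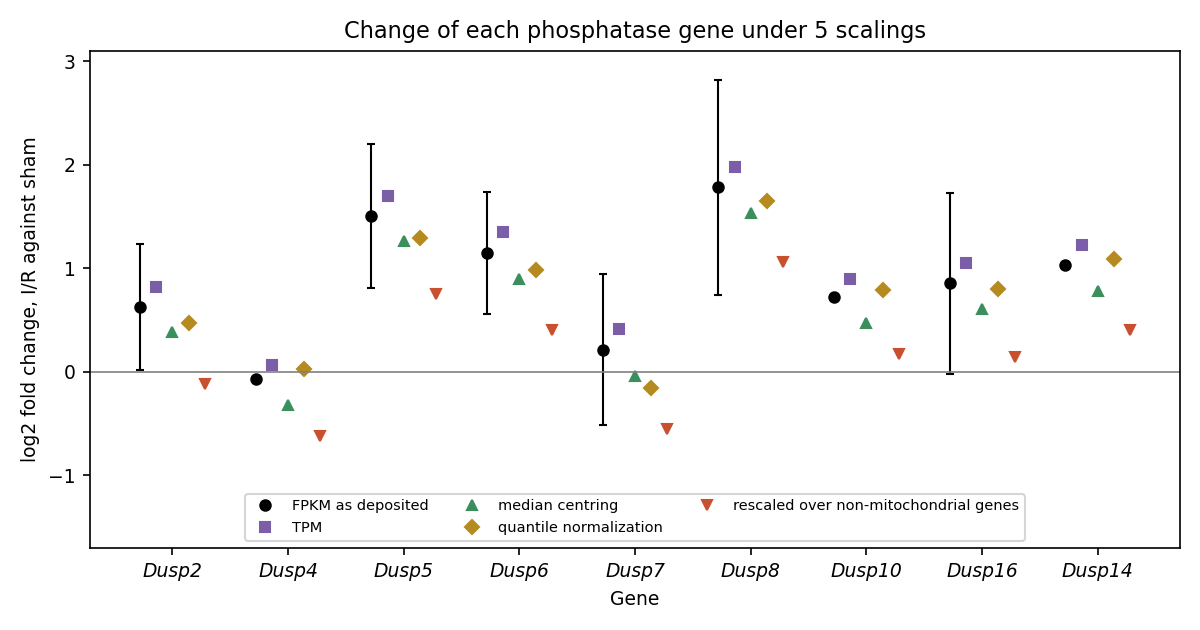
Log2 fold change of the 9 phosphatase genes (I/R against sham) under 5 scalings of the libraries, with 95% confidence intervals for the 6 genes tested on the FPKM as deposited. Dusp5, Dusp6, Dusp8, Dusp10, Dusp14 and Dusp16 stay above 0 under each scaling, Dusp2 is −0.12 after rescaling over the genes that are not mitochondrially encoded, and Dusp4 and Dusp7 change sign between scalings.

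Other genes of the pathway were read from the same fit. The feedback and output genes of ERK had the highest median of the pathway lists, 1.42 on the log2 scale. Of 18 found, 14 were tested, 10 were higher and 0 were lower. The AP-1 subunit Fos rose most, with 0.611, 0.530 and 0.420 FPKM in the sham rats and 50.7, 8.74 and 9.81 FPKM in the I/R rats (log2 fold change 4.74, adjusted p = 0.0014, limma), followed by Egr1. After rescaling over the genes that are not mitochondrially encoded, the list had a median of 0.67, and Fos (4.01) and Egr1 (3.68) still passed. Spry4, an inhibitor of receptor signalling upstream of ERK that was chosen after its values were seen, had a log2 fold change of 3.12 (adjusted p = 0.0011, limma), above that of every phosphatase gene.

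The MAPK kinases, which activate the MAP kinases, had 3 of 7 higher and 0 lower (median 0.59). Map2k3, an activator of p38, rose from 7.92 ± 2.19 to 26.7 ± 0.959 FPKM (SD, n = 3 each, log2 fold change 1.77, adjusted p = 0.0027, limma), and Map2k2, an activator of ERK, by 1.40 (adjusted p = 0.0096). With quantile normalization Map2k2 was at 0.59 and no longer passed (adjusted p = 0.12, limma). Among the MAP kinases, 8 of 12 were tested and only Mapk6, an atypical family member, passed (log2 fold change 1.45, adjusted p = 0.0030, limma). The median was 0.15 over the 12, which includes genes under the filter. Over the 8 tested it was 0.18, lower than that of all genes tested (0.29). Mapk14 and Mapk12, p38 kinases and the most abundant of the JNK and p38 genes, had log2 fold changes of 0.12 and −0.40 and did not pass, and neither did Mapk8 and Mapk9. Mapk11, another p38 kinase, had a log2 fold change of −1.24 that did not pass (adjusted p = 0.065, limma) but did with the replicate number as a block (adjusted p = 0.022). After rescaling over the genes that are not mitochondrially encoded, Mapk11 (−1.86, adjusted p = 0.014) and Mapk12 (−1.18, adjusted p = 0.024) both passed as lower. Mapk10 and Mapk13 were under the filter.

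Of 19 other dual-specificity phosphatases found, 13 were tested, 3 were higher and 2 lower, and the median was −0.05. Dusp27, a muscle protein without catalytic activity, rose from 1.27 ± 0.267 to 6.03 ± 1.75 FPKM (SD, n = 3 each, log2 fold change 2.14, adjusted p = 0.0023, limma), and Dusp23 had a log2 fold change of 1.33 (adjusted p = 0.0056). Dusp26 and Ssh3, a phosphatase of cofilin, fell by 1.04 (adjusted p = 0.012) and 0.83 (adjusted p = 0.024) on the log2 scale. Ssh3 was called in 9 of 16 alternatives, and lost its call under TPM (adjusted p = 0.073, limma), with no filter and without 5 of the 6 rats in turn. Dusp26 lost its call without sham replicate 3 (adjusted p = 0.061, limma), and Dusp23 after rescaling over the genes that are not mitochondrially encoded (adjusted p = 0.12, limma).

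Of 10 other phosphatases that act on MAP kinases, 7 were tested, 5 were higher and 1 lower (median 0.58). Ppp2ca (log2 fold change 1.50, adjusted p = 0.0066, limma) and Ppp2r1a (1.49, adjusted p = 0.0042), the catalytic and scaffold subunits of PP2A, rose most, and Ppm1d fell by 0.78 on the log2 scale (adjusted p = 0.025). Ppm1d was called in 10 of 16 alternatives, and its highest adjusted p was 0.087 (limma). Proteins that bind AU-rich elements control the stability of short-lived mRNAs, and 3 of 6 were higher and 0 lower (median 0.81). Zfp36, which speeds mRNA decay, had a log2 fold change of 2.77 (adjusted p = 0.0039, limma), and Khsrp, which does so too, 1.03 (adjusted p = 0.018), though Khsrp lost its call without sham replicate 3 (adjusted p = 0.069, limma). After rescaling over the genes that are not mitochondrially encoded, Mapk6 (adjusted p = 0.068, limma), Map2k2 (0.070), Ppp2ca (0.066) and Khsrp (0.54) did not pass, whereas Map2k3, Ppp2r1a, Zfp36 and Dusp27 did. On that scaling, the medians of these lists were −0.17 for the MAPK kinases, −0.29 for the MAP kinases, −0.71 for the other dual-specificity phosphatases, −0.20 for the other MAP kinase phosphatases and 0.05 for the AU-rich element binders, against 0.17 for the 9 phosphatase genes and −0.46 for all genes tested. The list medians include any genes under the filter, and that of all genes tested does not.

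**Figure D4:**
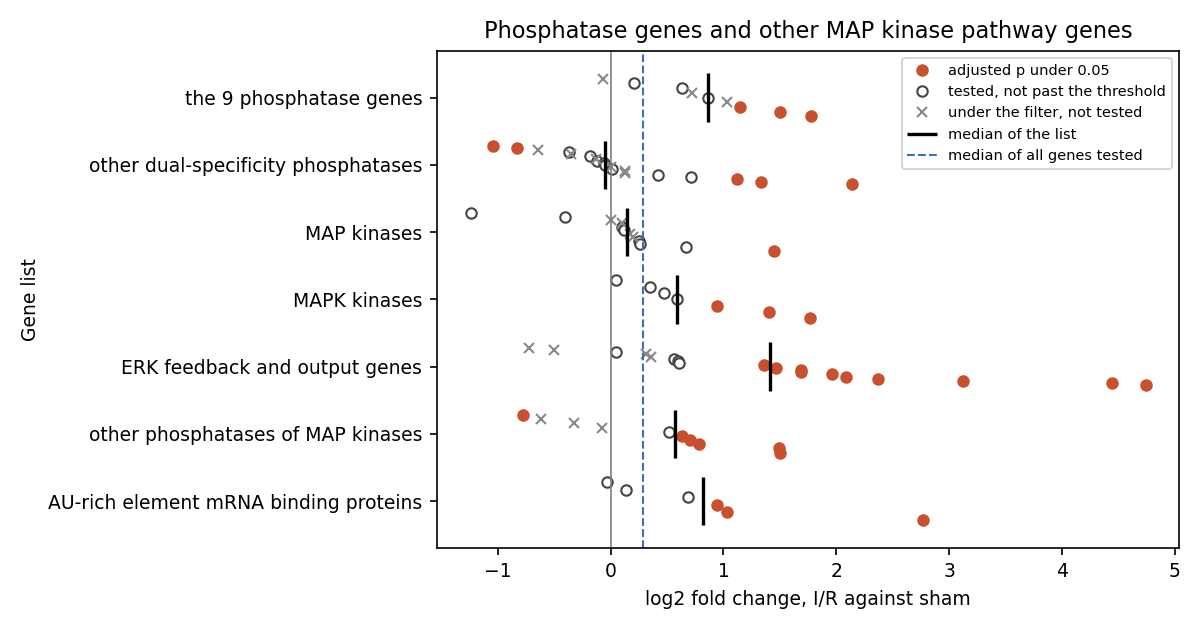
Log2 fold change (I/R against sham) of each gene in the 7 lists on the FPKM as deposited, with filled points for genes past the threshold, open points for genes tested that were not, crosses for genes under the filter, a black bar at the median of each list, and a dashed line at the median of all genes tested (0.29). The median was 0.86 for the 9 phosphatase genes and 1.42 for the ERK feedback and output genes; on the scaling over genes that are not mitochondrially encoded they are lower, at 0.17 and 0.67.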

How the data were processed

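The authors deposited 1 table of FPKM values for 30452 rat Ensembl genes in 6 libraries, 3 per group. The submitters' processing notes name STAR and HTSeq, and versions, genome build and annotation are not given in the sources used here. Columns were matched to the samples by name, and rows that shared a symbol were summed. Log2(FPKM + 0.1) was fitted with limma 3.58.1 in R 4.3.3 (lmFit, eBayes with an intensity trend) for the genes with a mean of at least 0.5 FPKM, with Benjamini-Hochberg adjustment. Shares and ratios were compared with two-sided exact permutation tests over the 6 rats. The fit was tested on simulated data. No count test was run, since FPKM are not counts. For 4115 of 4115 genes with a mean of 0.5 to 2 FPKM, the values in the 6 rats were whole steps within a tolerance of 0.01. The absolute depth is unknown, and the recovered fragments cover counting error only.

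The phosphatase genes, the pathway lists and the marker lists were chosen with earlier results of these data known. The genes named are all phosphatase genes found, from each pathway list the 2 genes that rose most and the 2 that fell most among those past the threshold, the kinases of the JNK and p38 ratio, and the 2 highest-level genes of each marker list where the text describes them. Spry4, Srf, Hnrnpd and the ratios of single phosphatase genes were chosen after their values were seen. Deviations of same-numbered rats from their group means correlated at 0.203, 0.117 and 0.118 across genes, and sham replicate 3 with I/R replicate 2 at 0.12. As every same-numbered value was over 0.1, the numbers were treated as pairs in an alternative fit. The numbers come from the labels, which do not say what a number marks. Alternatives were other pseudocounts, filters and scalings, no trend, the replicate block, the highest row of each symbol, and each rat left out. A ratio for the ERK branch is not reported here.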

Additional observations from a re-analysis of the deposited data

How the results depend on the processing

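Of the 9 phosphatase genes, 3 were called higher and 0 lower. In the fit with a replicate block the count was again 3, and the adjusted p was 0.0056 for Dusp5, 0.011 for Dusp6 and 0.0022 for Dusp8 (limma). The block changed no call of a phosphatase gene. Of the 21 pathway genes followed under it, Mapk11 passed as lower (log2 fold change −1.24, adjusted p = 0.022, limma), and no other call changed. Leaving out 1 rat at a time gave 2 to 4 higher. After rescaling over the genes that are not mitochondrially encoded, 0 were higher. At a mean of at least 5 FPKM the count was 0 because no phosphatase gene passes that filter. Dusp5 and Dusp6 were called in 15 of 16 alternatives in which they were tested, and Dusp8 in 13 of 16. These genes had 1 row each, so the alternative with the highest row of each symbol used their FPKM unchanged. Dusp2 also passed under TPM (adjusted p = 0.043, limma). With a pseudocount of 1 the median log2 fold change of the 9 genes was 0.44.

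Over the whole table, 77.6% of calls were higher (2790, with 805 lower). This share was 87.3% under TPM (3449 and 504), 56.5% with median centring (2020 and 1554), 48.0% with quantile normalization (1441 and 1559) and 21.8% with rescaling over the genes that are not mitochondrially encoded (797 and 2858). At a mean of at least 5 FPKM, 166 were lower. Without sham replicate 2, 309 were lower, and without sham replicate 3, 1528 were higher and 359 lower. With 3 rats per group, an exact permutation test cannot give a p under 0.1.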
